A study of Mus musculus with 19 samples.

Results

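The cytochrome P450 genes of families 1 to 4 and the glutathione transferase genes were examined in the cornea and conjunctiva of mice under calorie restriction (CR) and of mice with free access to food (ad libitum, AL). Members were all features whose symbol began with Cyp, a digit from 1 to 4 and a letter, or with Gst, a letter and a digit. This gave 108 of the 24552 features in each table, of which 86 were P450 genes and 22 glutathione transferase genes. They included 5 annotated pseudogenes and 1 antisense RNA gene, Cyp4x1os. The mice were C57BL/6 by the labels and female C57BL/6 J by the study's methods, and the AL group ate standard chow freely. CR mice received a smaller daily ration, reached stepwise and given shortly before the dark phase. In one cohort of the study the CR chow was also enriched in vitamins and micronutrients. The labels name neither the cohort nor the age: all titles carry the codes 6M and 50W, the series text calls the mice young and the study's methods describe restriction begun in adults. Diet, meal time and any difference in chow cannot be told apart. Cornea samples were scraped epithelium and conjunctiva samples were excised whole, and 10 cornea libraries (5 per diet) and 9 conjunctiva libraries (4 AL, 5 CR) entered the comparison. The p-values measure the spread between these libraries, each taken here as 1 mouse.

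The tissue labels were checked against marker genes. Krt12, the keratin of the corneal epithelium, had a mean of 306448 ± 19768 normalized counts (SD, n = 5) in AL cornea and 3006 ± 1702 (SD, n = 4) in AL conjunctiva. Muc5ac, the goblet cell mucin, had means of 12.9 ± 17.7 and 4515 ± 1014 in the same libraries. The sums of 8 corneal epithelium markers were 721669 to 792612 in AL cornea and 357518 to 451726 in AL conjunctiva. The sums of 7 conjunctival epithelium markers overlapped, at 39899 to 57535 and 47045 to 85653, so that list did not separate the tissues. Each tissue was scaled in its own table. The conjunctiva libraries also held skeletal muscle markers, with a summed level of 10518 to 104562. In such bulk samples fewer cells of a type and less RNA per cell cannot be told apart. Counted reads per library ran from 10354125 to 14681223, and a gene without a read could have had up to 3, which was 2.27 to 3.37 normalized counts. These floors cover counting error only.

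P450 enzymes insert an oxygen atom into drugs, toxins, steroids and fatty acids, using electrons passed on by the reductase Por. Glutathione transferases join glutathione to reactive products, including those that P450 enzymes make, and so ready them for export. Both families are best known from the liver, where transcription factors of the PAR bZIP group (Dbp, Tef and Hlf) drive daily rhythms of Cyp2a5 and other members by binding a site called the D-box. At the ocular surface the same enzymes meet oxygen, light and airborne chemicals.

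The upstream sequence is shown for Cyp2a5, the member that changed in both tissues, and for its close relative Cyp2a4, which was almost without reads. Gsta3 and Cyp2b10 are added because their windows hold letters of other stress and drug response motifs. RefSeq windows (GRCm38.p6) of 250 bases before to 50 after the start were scanned on both strands, and the 250 bases before the start are printed 5′ to 3′, all from the plus strand. Capitals mark TTGCATAA in Cyp2a5 and Cyp2a4, TGACNNNGC in Gsta3, and TTGCATAA, GCGTG and its complement in Cyp2b10.
Cyp2a5, chr7:26835089-26835338: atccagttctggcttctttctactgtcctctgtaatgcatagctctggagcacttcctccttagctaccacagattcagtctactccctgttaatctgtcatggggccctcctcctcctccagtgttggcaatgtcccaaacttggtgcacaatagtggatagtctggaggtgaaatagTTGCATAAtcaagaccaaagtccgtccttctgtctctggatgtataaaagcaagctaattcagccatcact
Cyp2a4, chr7:26306942-26307191: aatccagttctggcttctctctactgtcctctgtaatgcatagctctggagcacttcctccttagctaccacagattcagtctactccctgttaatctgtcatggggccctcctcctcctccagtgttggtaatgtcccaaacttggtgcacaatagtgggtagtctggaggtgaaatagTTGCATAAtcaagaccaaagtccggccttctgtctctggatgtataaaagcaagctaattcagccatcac
Gsta3, chr1:21240335-21240584: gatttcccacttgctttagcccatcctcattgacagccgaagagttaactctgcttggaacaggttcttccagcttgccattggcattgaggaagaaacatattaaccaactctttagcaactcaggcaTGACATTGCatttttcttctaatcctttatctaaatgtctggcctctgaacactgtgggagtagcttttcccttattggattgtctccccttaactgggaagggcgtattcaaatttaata
Cyp2b10, chr7:25897408-25897657: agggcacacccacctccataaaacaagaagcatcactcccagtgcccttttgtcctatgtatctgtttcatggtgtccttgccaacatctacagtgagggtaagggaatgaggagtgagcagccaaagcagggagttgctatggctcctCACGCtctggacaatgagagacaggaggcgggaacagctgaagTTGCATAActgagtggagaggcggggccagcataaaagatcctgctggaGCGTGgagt

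The Cyp2a5 and Cyp2a4 sequences differed at 4 of 249 bases when shifted by 1 base (98.4% identical). Both hold TTGCATAA, which begins at -71 in Cyp2a5 and at -70 in Cyp2a4 relative to the start. This variant of the D-box, which is also close to C/EBP sites, was added to the scan after the Cyp2a5 window had been read. It was found in 7 of the 87 members with a window, Cyp2a4, Cyp2a5, Cyp2b10, Cyp2b19, Cyp2b23, Cyp4f14 and Gstt1, and in 0.743% of all 32841 windows. Several of these genes are duplicates of one another and so share sequence by descent. The standard D-box letters (TTATGTAA or TTACGTAA) were in 0 member windows and in 1.06% of all windows. The E-box CACGTG was in the windows of Cyp2j6 and Cyp4v3, against 7.15% of all windows. GCGTG, the core of the site bound by the dioxin receptor Ahr, was in a window of 20 of the 87 members and in 32.4% of all windows. TGACNNNGC, the core of the antioxidant response element, was in a window of 9 of the 87 members and in 12.4% of all windows. A member counted if any of its windows matched, whereas the shares of all windows count each window, so the units differ. A match is a run of letters and was not tested for binding.

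Most members were silent or nearly so. In the cornea 41 members had no read in any library, 34 had reads but a mean under 10 normalized counts, and 33 were tested (17 P450 and 16 glutathione transferase genes). In the conjunctiva 35 had no read, 30 were under the limit, and 43 were tested (24 and 19). Of all 24552 features, 17910 had a read in the cornea and 12278 were tested there. In the conjunctiva 18469 of all features had a read and 13929 were tested. All 33 members tested in the cornea were also tested in the conjunctiva, and 29 had no read in either tissue. The silent members included well-known liver enzymes: Cyp3a11, the main drug-metabolizing P450 of mouse liver, Cyp4a14, a fasting-induced fatty acid hydroxylase, and Cyp2c37, Cyp2c50 and Cyp2c70. Cyp1a1, the classic target of dioxin, had 0 reads in the cornea and 5 in the conjunctiva, and Cyp2g1, an enzyme of the olfactory mucosa, had 0 in both. The members under the limit had at most 97 reads in all cornea libraries together and 84 in all conjunctiva libraries.

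The transcripts that were present were dominated by Gsto1, the omega-class enzyme that reduces glutathione-bound protein disulfides and dehydroascorbate. In cornea libraries it alone took 1.82% to 2.56% of all counted reads, where all members together took 2.20% to 2.89%. In conjunctiva libraries these shares were 1.73% to 2.63% and 2.38% to 3.43%. Per kb of exon, the AL mean of Gsto1 was 110493 normalized counts in the cornea, followed by Gsta4 at 19498 and Cyp4a12b at 4180. In the conjunctiva Gsto1 was at 119344 per kb, followed by Cyp2f2 at 22165 and Gsta4 at 8612. The order of levels therefore began with the same gene in both tissues and parted at the second place. Per-kb values assume reads along the whole transcript, and the labels and the study's methods name different library kits, one of them primed at the poly(A) tail.

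**Figure D1:**
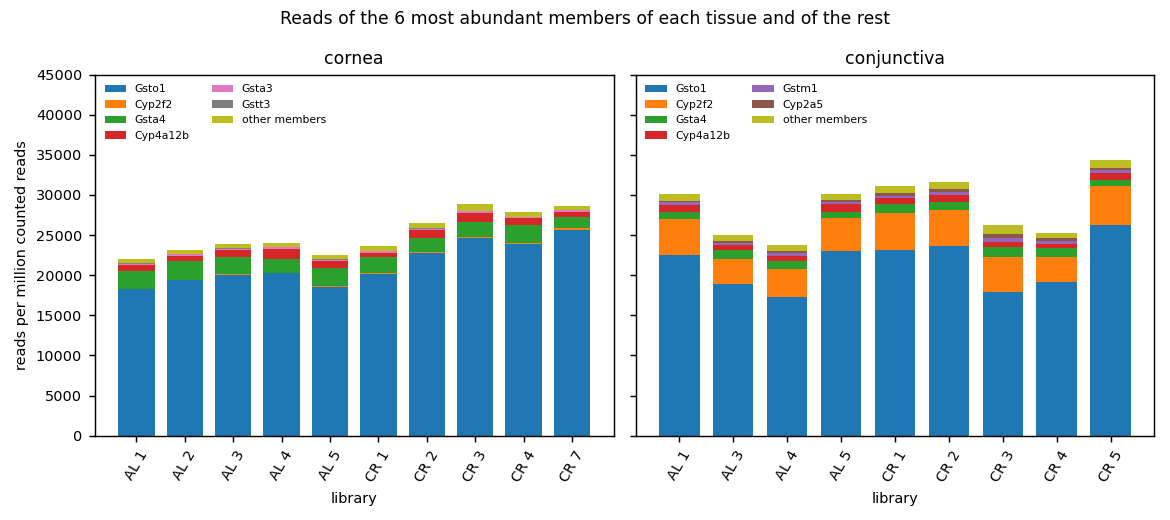
Scaled reads (CPM, y axis) of the 6 most abundant members of each tissue and of the remaining members, stacked for each library (x axis). Gsto1 makes up most of every bar, and the Cyp2f2 segment is wide only in the conjunctiva.

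Under CR, 1 member passed both thresholds (limma, Benjamini-Hochberg adjusted p under 0.05 over all genes and a fold over 1.5) in each tissue, and it was Cyp2a5 in both. That was 3.03% of the 33 members tested in the cornea, beside 1.22% of all 12278 genes tested there. It was 2.33% of the 43 members tested in the conjunctiva, beside 0.359% of all 13929 genes. With a single gene called, these shares say little about the families as such. An unadjusted p under 0.05 was reached by 9 members in the cornea (27.3%, 5 of them higher under CR), beside 18.1% of all genes. Among conjunctiva members it was reached by 8 (18.6%, 7 of them higher), beside 9.40% of all genes. The diets had separate ranges for 2 members in the cornea (6.06%, Cyp2a5 and Cyp2j9), beside 3.97% of all genes. They were separate for 3 in the conjunctiva (6.98%, Cyp2a5, Gstt2 and Cyp4v3), beside 3.87% of all genes. The median log2 change of the members tested in the cornea was -0.065, beside -0.027 for all tested genes. For the conjunctiva the medians were 0.15 and -0.016. In the conjunctiva 30 of 43 members (69.8%) had a higher mean log2 value under CR, beside 48.0% of all genes. In the cornea it was 15 of 33 (45.5%), beside 46.9%. Cyp2j12, Cyp4f39 and Gstm6 had AL conjunctiva means of 0, 7.39 and 9.22 and met the limit of 10 only through CR. The filter thus favoured a higher CR value for these genes in the conjunctiva counts and median. Cyp4f39 was also among the 8 conjunctiva members with an unadjusted limma p under 0.05.

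**Figure D2:**
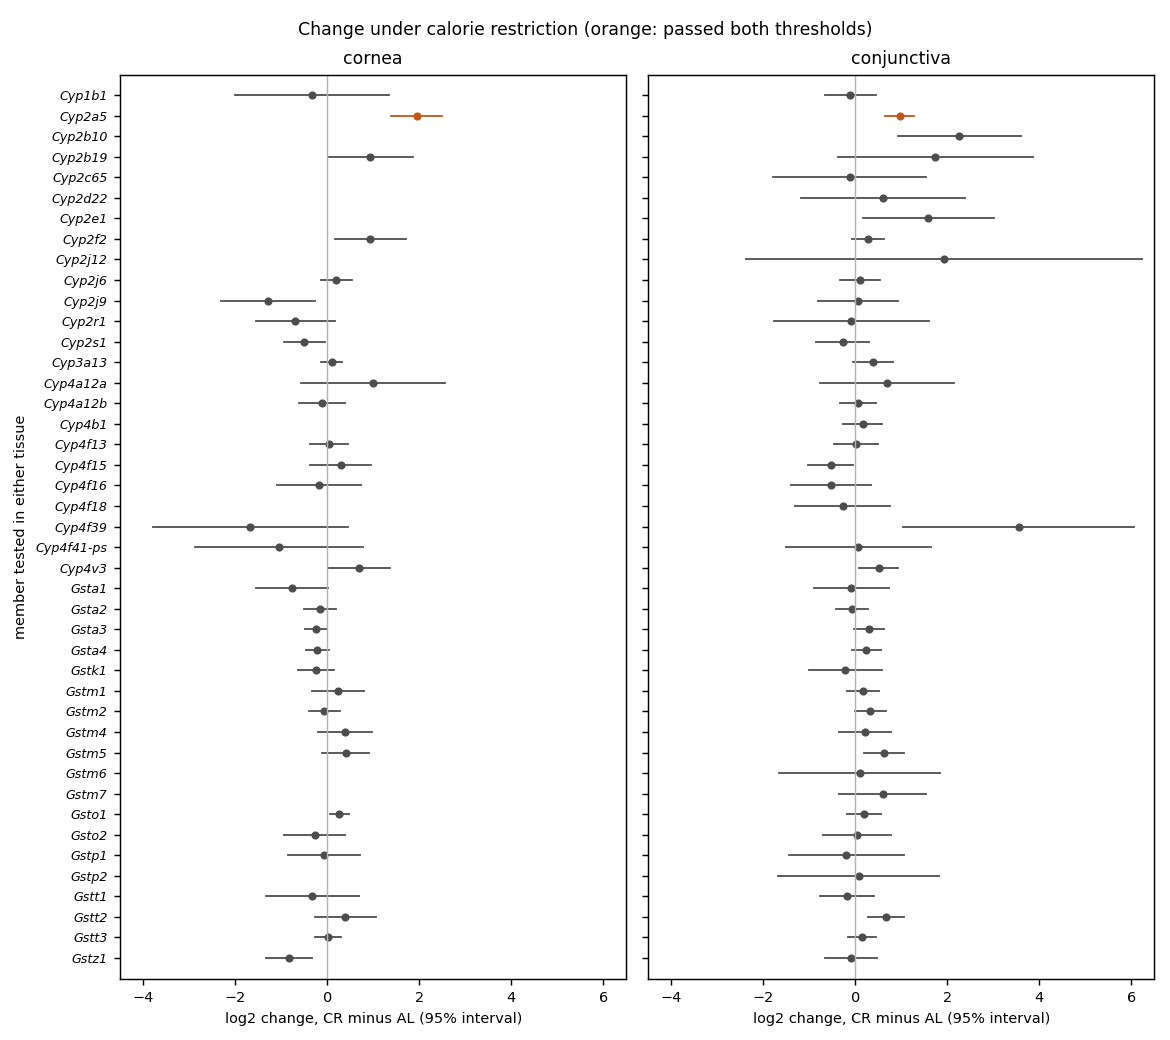
Log2 change under CR (x axis) of every member tested in either tissue (y axis), with its 95% interval from the limma fit. Cyp2a5 (orange) is the 1 member past both thresholds in each tissue, at 1.95 in the cornea and 0.96 in the conjunctiva, and members such as Cyp2j12 and Cyp4f39 have intervals several log2 units wide.

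Cyp2a5 (gene 13087 in RefSeq, chr7:26835339-26843264 on GRCm38.p6) encodes the coumarin hydroxylase, which also oxidizes nicotine and is the mouse counterpart of a human liver enzyme. In the cornea its normalized counts were 216, 71.0, 153, 171 and 158 in AL 1 to 5, and 513, 387, 795, 545 and 639 in CR 1, 2, 3, 4 and 7. Every CR library was above every AL library, and the lowest CR value (CR 2) was well above the highest AL value (AL 1). The means were 154 ± 52.4 and 576 ± 152 (SD, n = 5 each). The level rose 3.85-fold, a log2 change of 1.95 ± 0.26 (SE) with a limma adjusted p of 0.00124.

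In the conjunctiva Cyp2a5 stood far higher in AL mice and rose by less on the log2 scale. The values were 2441, 2063, 3355 and 2619 in AL 1, 3, 4 and 5, and 4964, 4796, 5613, 5122 and 4679 in CR 1 to 5. The groups again did not overlap, and the CR libraries lay close together, with a mean of 5035 ± 364 (SD, n = 5) against 2619 ± 543 (SD, n = 4). The level rose 1.95-fold, a log2 change of 0.96 ± 0.15 (SE) with a limma adjusted p of 0.00639. The call remained when any 1 library was left out, with log2 changes of 1.69 to 2.09 for the cornea and of 0.85 to 1.09 for the conjunctiva. The share of genes without a read was higher in CR cornea (44.4% ± 3.06) than in AL cornea (40.5% ± 2.70), and with that share as a covariate the cornea change was 1.78 with an adjusted p of 0.0292.

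Reads of Cyp2a5 could in part come from relatives: 22.3% of its 75-base stretches, the read length, also occur in other genes, most of them in Cyp2a4. Cyp2a4, a steroid hydroxylase, had 9 reads in 2 of the 10 cornea libraries and 24 reads in 5 of the 9 conjunctiva libraries. Its highest value in any library was 9.65 normalized counts. Of the 75-base stretches of Cyp2a4, 22.1% also occur in other genes, so its counts are uncertain too. The near-identical upstream sequences printed above belong to these genes of unlike counted level. The part of upstream sequence in the levels was not tested.

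The size of the Cyp2a5 change differed between tissues by 0.98 ± 0.30 (SE) on the log2 scale, but the adjusted p of this difference was 0.387. Of 33 members tested for a difference between tissues, 7 had an unadjusted p under 0.05 and 0 passed at an adjusted p under 0.05, beside 7.48% and 2 genes of all 11929. The other 6 were Cyp4f39, Gsta3, Gsta4, Cyp4f15, Cyp2j9 and Gstz1. This test takes the tissues as independent, but 8 cornea and 8 conjunctiva libraries carry the same diet and number and may come from the same mice. Taken per shared title, the Cyp2a5 difference was 0.66 with an adjusted p of 0.928, and of the 7 members only Gsta3 and Cyp4f39 kept an unadjusted p under 0.05. Gsta3 had log2 changes of -0.24 (cornea) and 0.31 (conjunctiva), and Gsta4 of -0.21 and 0.23.

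**Figure D3:**
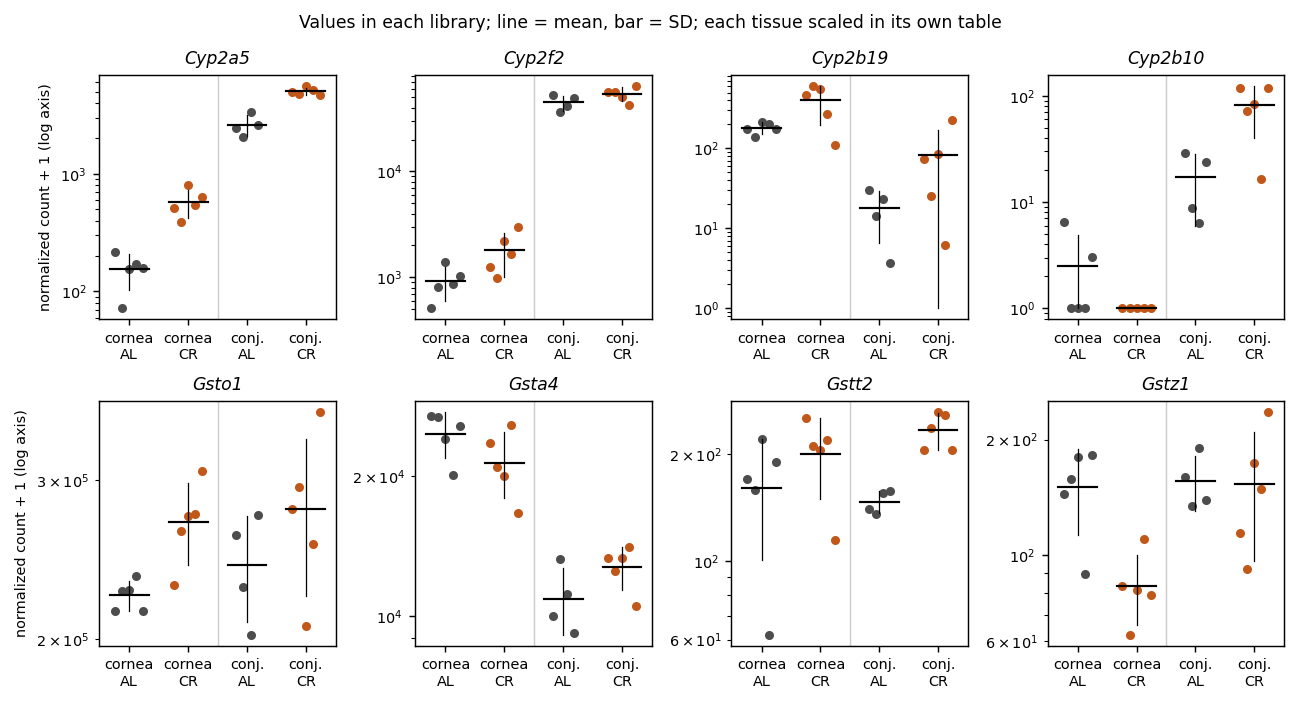
Normalized count + 1 (y axis, log scale) of 8 members in every library, by tissue and diet (x axis); lines are means and bars the SD, stopped at 0 counts. Cyp2a5 groups do not overlap in either tissue, Cyp2b10 has reads mainly in the conjunctiva, and Gstz1 is lower in 4 of 5 CR cornea libraries than in every AL library.

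Cyp2a5 lies in a cluster of Cyp2 genes on chromosome 7. Between Cyp2s1 and Cyp2f2 (chr7:25802469-27133660, 1.33 Mb) there were 12 members, of which 4 were tested in the cornea and 5 in the conjunctiva. All tested genes of the cluster apart from Cyp2s1 had a positive log2 change in both tissues where they were tested, and of these only Cyp2a5 passed. Cyp2g1, Cyp2a22 and Cyp2a12, which lie beside Cyp2a5, had 0 reads in both tissues.

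Cyp2f2 (gene 13107), the enzyme that activates naphthalene in airway club cells, was the most abundant P450 of the conjunctiva. Its cornea values were 509, 812, 1399, 872 and 1026 in AL 1 to 5, and 1242, 993, 2183, 1645 and 2995 in the 5 CR libraries. In 3 of 5 CR libraries it exceeded every AL library, but the groups overlapped. The log2 change was 0.94 ± 0.34 (SE) with a limma adjusted p of 0.204. CR 7, the highest, also had the highest sum of 7 conjunctival epithelium markers, 83407 against 39899 to 57535 in the other cornea libraries, and the part of this in its Cyp2f2 value was not tested. In the conjunctiva the means were 44884 ± 7271 (SD, n = 4) in AL and 54174 ± 8060 (SD, n = 5) in CR, a log2 change of 0.27 with an adjusted p of 0.629. A predicted gene on the opposite strand, Gm15883, overlaps 274 bases of its exons, and whether counting used strand was not settled.

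Cyp2b19 (gene 13090), a keratinocyte enzyme that makes epoxides of arachidonic acid, had 175, 137, 216, 199 and 174 normalized counts in AL cornea. In CR cornea it had 460, 609, 549, 272 and 111, so that 4 CR libraries were above and CR 7 below every AL library. The log2 change was 0.94 ± 0.42 (SE) with a limma adjusted p of 0.270. Without CR 7 it was 1.34 with an adjusted p of 0.00253, and with array weights 1.17 and 0.0344, so whether it passed depended on the setting. Over all genes, 162 were called without CR 7 and 705 with array weights, beside 150 in the main comparison. In the conjunctiva Cyp2b19 was low and scattered, with 2.73 to 28.9 in AL and 5.12 to 224 in CR.

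Cyp2b10 (gene 13088), the classic target of the nuclear receptor Nr1i3 in liver, was under the limit in the cornea, with 7 reads in all. Its conjunctiva values were 28.1, 7.86, 5.38 and 22.7 in AL 1, 3, 4 and 5, and 118, 70.4, 83.0, 15.4 and 119 in CR 1 to 5. CR 4 fell among the AL libraries and the other 4 lay above them all. The log2 change was 2.26 ± 0.63 (SE) with a limma adjusted p of 0.180, and without CR 4 it was 2.77 with an adjusted p of 0.0384. Nr1i3 itself had at most a mean of 1.08 normalized counts in any group, and Nr1i2, the other main drug-sensing receptor, had 0 reads in both tissues.

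Of the other Cyp2 genes 0 passed. Cyp2e1, the ethanol-oxidizing P450, had 2.41, 11.2, 23.7 and 10.9 in AL conjunctiva and 11.7, 37.1, 42.5, 60.4 and 23.3 in CR conjunctiva, overlapping groups with a limma adjusted p of 0.464. Cyp2j9, which also acts on arachidonic acid, had 49.5, 36.1, 42.6, 31.8 and 61.8 in AL cornea and 28.5, 6.60, 29.5, 29.6 and 8.36 in CR cornea. These groups did not overlap, but the adjusted p was 0.186, and in the conjunctiva the means were 41.6 and 42.5. Cyp2s1, an epithelial P450 that dioxin induces, had means of 190 ± 25.9 and 138 ± 43.4 in AL and CR cornea (adjusted p = 0.225). Cyp2j12 had 0 reads in all AL conjunctiva libraries, 3 or fewer normalized counts in CR 1 to 4 and 204 in CR 5.

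Cyp1b1, the Cyp1 gene known for its role in the development of the eye's drainage angle, was the 1 tested member of its family. It had means of 11.4 and 10.8 in AL and CR cornea and of 99.4 and 91.8 in AL and CR conjunctiva. Cyp3a13 was the 1 tested Cyp3 gene, at 793 ± 67.3 and 848 ± 65.1 in AL and CR cornea. Conjunctiva means were 251 ± 38.1 and 332 ± 79.0, with 4 of 5 CR libraries above every AL library and a limma adjusted p of 0.588.

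The Cyp4 genes, which hydroxylate the ends of fatty acids, were led by Cyp4a12b, whose mean normalized counts were 10010 ± 2656 and 9386 ± 2988 in AL and CR cornea, and 8988 ± 1975 and 9363 ± 2133 in AL and CR conjunctiva. Its neighbour Cyp4a12a had 309, 326, 502, 652 and 587 in AL cornea and 807, 2177, 2593, 684 and 196 in CR cornea. CR 2 and CR 3 stood apart and CR 7 was below every AL library, with an adjusted p of 0.477. In the conjunctiva CR 2 was the highest, at 898, where the other CR libraries had 73.1 to 274. These 2 genes share about 41% of their 75-base stretches, so how reads were split between them is uncertain.

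Cyp4f39 (gene 320997) makes the very long hydroxylated fatty acids of skin and of meibomian gland lipids. In the conjunctiva it had 16.1, 13.5, 0 and 0 in AL and 30.2, 14.3, 22.2, 37.9 and 498 in CR 1 to 5. The log2 change was 3.55 ± 1.16 (SE) with a limma adjusted p of 0.299, and without CR 5 it was 2.69 with 0.374. CR 5 also held the highest Cyp2b19 (224) and Cyp2j12 (204). The summed level of 9 meibomian gland markers was 25947 in CR 5, 1028 to 1731 in CR 1 to 4 and 736 to 1340 in AL conjunctiva. None of the 9 was at 0 in all conjunctiva libraries. All 8 tested markers had a higher mean log2 value under CR, with a median log2 change of 1.91 and 0 past the thresholds. The part of these marker levels in the values of CR 5 and in the Cyp4f39 change was not tested.

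Cyp4v3, the mouse counterpart of the gene mutated in Bietti crystalline dystrophy of the retina and cornea, had 125, 122, 108 and 134 in AL conjunctiva. In CR conjunctiva it had 197, 148, 153, 195 and 180, above every AL library, with a log2 change of 0.51 ± 0.20 (SE) and a limma adjusted p of 0.426. In the cornea all 5 CR values (58.5 to 79.2) lay within the AL range (27.4 to 83.4), although the fitted change was 0.69. Cyp4f15 had means of 228 ± 76.4 and 153 ± 23.4 in AL and CR conjunctiva, and 92.5 and 109 in AL and CR cornea.

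Among the glutathione transferases 0 members passed in either tissue. Gsto1 (gene 14873, chr19:47854973-47864790) had 214862, 226215, 226642, 234911 and 215009 normalized counts in AL cornea. In CR cornea it had 229395, 263112, 273430, 274884 and 307035, so that 4 CR libraries were above every AL library. The log2 change was 0.26 ± 0.10 (SE) with a limma adjusted p of 0.167. In the conjunctiva the AL values ran from 202366 to 274554 and the CR values from 206880 to 356554, with CR 5 the highest and an adjusted p of 0.779.

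The alpha class was lower on average under CR in the cornea for all 4 genes and mixed in the conjunctiva. Over all genes tested in the cornea, 46.9% were higher under CR. Gsta4, which conjugates hydroxynonenal formed from oxidized lipids, had means of 24684 ± 2794 and 21386 ± 3468 in AL and CR cornea (limma adjusted p = 0.353). In the conjunctiva its means were 10902 ± 1769 and 12760 ± 1359 (adjusted p = 0.661). With the share of genes without a read as a covariate, the sign of its cornea change turned, at 0.022. Gsta3 had 2333, 2046, 2447, 2078 and 2065 in AL cornea and 1824, 1749, 1793, 1633 and 2315 in CR cornea. All CR libraries except CR 7 were below every AL library (adjusted p = 0.256). Gsta2 was at 786 and 721 in AL and CR cornea, and Gsta1 at 52.7 and 31.4. The sign of the Gsta2 change rested on CR 1, without which the log2 change was 0.021. Of Gsta1, 84.7% of the 75-base stretches also occur in other genes, mainly the predicted gene Gm3776, so its counts are uncertain.

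In the mu class all 6 tested genes had a higher mean log2 value under CR in the conjunctiva, beside 48.0% of all genes. In the cornea it was 3 of 4, beside 46.9% of all genes. Gstm6 met the limit of 10 in the conjunctiva only through CR, with means of 9.22 (AL) and 12.2 (CR) and a log2 change of 0.092. Gstm5 (gene 14866) had 283, 151, 229 and 293 in AL conjunctiva and 290, 394, 426, 352 and 344 in CR conjunctiva. Only CR 1 overlapped the AL libraries, with a log2 change of 0.63 ± 0.21 (SE) and a limma adjusted p of 0.287. Gstm1 was the most abundant, with means of 4043 ± 280 and 4630 ± 1062 in AL and CR conjunctiva and 768 and 929 in AL and CR cornea. Gstm2 had means of 903 ± 145 and 1135 ± 200 in the conjunctiva.

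Of the theta class, Gstt2 (gene 14872) had 139, 135, 154 and 156 in AL conjunctiva and 204, 236, 262, 256 and 204 in CR conjunctiva. The groups did not overlap, and the difference was 1.58-fold with a log2 change of 0.66 ± 0.19 (SE). Its limma adjusted p was 0.180, so it did not pass over all genes. In the cornea its means were 159 ± 59.6 and 200 ± 51.6, with overlapping groups. Gstt3 was at 940 and 1051 in AL and CR conjunctiva. Gstt1, whose window holds TTGCATAA, was at 230 ± 63.2 and 208 ± 72.5.

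Gstz1 (gene 14874), the isomerase of the tyrosine breakdown pathway, was the transferase with the smallest p in the cornea. It had 143, 157, 179, 88.4 and 181 in AL and 82.1, 61.3, 80.3, 109 and 78.0 in CR. Only AL 4 and CR 4 overlapped the other group. The log2 change was -0.84 ± 0.24 (SE) with a limma adjusted p of 0.0826. Without AL 4 it was -1.02 with 0.0158 and with array weights -0.95 with 0.0123, so whether it passed depended on the setting. Over all genes, 536 were called without AL 4 and 705 with array weights, beside 150 in the main comparison. In the conjunctiva its means were 155 ± 25.5 and 152 ± 56.0. The pi-class gene Gstp1, which shares 29.2% of its 75-base stretches with Gstp2, and the mitochondrial Gstk1 had adjusted p-values from 0.519 to 0.949 over both tissues.

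**Figure D4:**
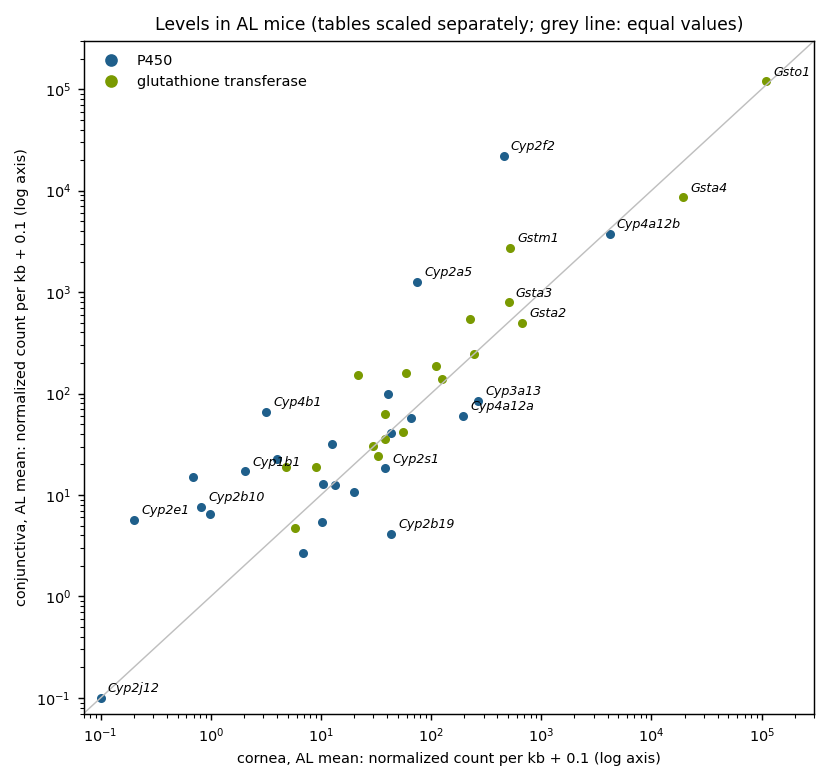
AL means in normalized counts per kb of exon + 0.1, cornea (x axis) against conjunctiva (y axis), both on log scales, for the members tested in the conjunctiva. Cyp2f2, Cyp2a5 and Gstm1 lie above the line of equal values and Cyp2b19 and Cyp3a13 below it, but each tissue was scaled in its own table.

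The tissues were scaled separately, so their levels are given side by side without a test. Cyp2a5 had AL means per kb of 74.1 (cornea) and 1264 (conjunctiva), and Cyp2f2 of 456 and 22165. Gstm1 had 522 and 2745. Cyp2b19 had the opposite order, with 43.2 and 4.06, as did Cyp3a13 with 268 and 84.8.

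Genes that work with these enzymes were taken from lists chosen with earlier results of these data known. Among 14 genes for P450 electron supply and epoxide hydrolysis, 12 were tested in each tissue and 0 passed, with median log2 changes of 0.0077 and 0.077. Por, the reductase on which microsomal P450 enzymes depend, had means of 2850 ± 572 and 4260 ± 828 in AL and CR cornea (log2 change 0.58, limma adjusted p = 0.0531), and of 6818 ± 1491 and 9983 ± 1974 in the conjunctiva (0.55, adjusted p = 0.285). Among 14 membrane-bound glutathione transferases and relatives, 1 passed: Mgst1, which rose in the cornea from 45.1 ± 12.5 to 125 ± 53.5 (log2 change 1.35, adjusted p = 0.0482). In the conjunctiva Mgst1 was at 1121 and 1891 (0.71, adjusted p = 0.229). Mgst2 and Mgst3 did not pass, with log2 changes from -0.11 to 0.31.

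Of 19 receptors and factors that control drug metabolism, 12 were tested in the cornea and 15 in the conjunctiva. Nfe2l2, the factor that acts through the antioxidant response element, rose in the cornea from 1631 ± 256 to 2455 ± 268 (log2 change 0.60, limma adjusted p = 0.0154) and was the 1 gene of the list to pass. Its conjunctiva means were 2953 and 3575 (adjusted p = 0.624). Ahr was at 183 and 140 in AL and CR cornea and 547 and 487 in AL and CR conjunctiva. Ppara, the fatty acid sensor that controls Cyp4a genes in liver, had log2 changes of -0.66 (cornea) and 0.38 (conjunctiva) with adjusted p-values of 0.194 and 0.541.

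Of 4 genes in the list of PAR bZIP factors and their repressor Nfil3, 2 passed in the cornea and 3 in the conjunctiva, all with higher levels under CR. Dbp rose in the cornea from 380 ± 133 to 2565 ± 420 and in the conjunctiva from 393 ± 139 to 2614 ± 442, log2 changes of 2.82 and 2.80 (limma adjusted p = 9.6e-05 and 0.000332). Tef rose by 1.72 and 1.80 on the log2 scale (adjusted p = 1.25e-05 and 0.00214). Hlf rose in the conjunctiva by 0.89 (adjusted p = 0.0154) and had a log2 change of 0.26 in the cornea (adjusted p = 0.207). Nfil3, which acts at the same sites, had log2 changes of -2.59 and -2.10, with an unadjusted limma p under 0.05 in each tissue, but did not pass. Time of collection is not in the labels, and the part of meal time or of these factors in the Cyp2a5 change was not tested.

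Of 16 flavin monooxygenases and other oxidoreductases, Cbr2, a carbonyl reductase abundant in lung, rose in the conjunctiva from 77163 ± 4438 to 128089 ± 9715 (log2 change 0.73, limma adjusted p = 0.0247). In the cornea its log2 change was 0.55 with an adjusted p of 0.0140, short of the fold threshold. Among 19 P450 genes of families above 4, Cyp24a1, which breaks down vitamin D, rose in the cornea from 16.6 ± 5.69 to 94.7 ± 62.9 (log2 change 2.15, adjusted p = 0.0445). The lists of 16 genes for glutathione supply and export and of 26 other conjugating enzymes had 0 genes past the thresholds in either tissue, with medians from 0.062 to 0.50.

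Markers of other cells were read beside these values. In the cornea the summed level of 12 lacrimal gland markers ran from 98.2 to 29634 in AL and from 56.7 to 397 in CR, with Prol1 and Sval1 at 0 in all. All 5 tested markers of the list had lower means under CR and 1 passed, with a median log2 change of -4.69. AL 1, the highest, also had the highest Cyp2a5 among AL libraries. Without AL 1 the Cyp2a5 change was 2.09. Of 8 liver cell markers, 4 were at 0 in each tissue, and Alb, Ttr and Fgb had 0 reads in both. Conjunctiva sums of the 8 were nevertheless 288 to 386 (AL) and 167 to 367 (CR). The 1 marker tested there had a log2 change of -0.28 and did not pass. Cornea sums reached at most 16.5 (AL) and 19.7 (CR), with 0 markers tested. In the conjunctiva the 9 fibroblast markers, all of them lower under CR and 2 past the thresholds (median log2 change -0.70), summed to 41769 to 62297 in AL and 27386 to 53794 in CR, and the 8 macrophage markers, all lower under CR with 0 past the thresholds, to 3342 to 4361 and 2153 to 3346. In the cornea the macrophage markers summed to 319 to 416 and 207 to 311, ranges that did not overlap, with all 5 tested markers lower under CR and 1 past the thresholds. The 12 lacrimal gland markers summed in the conjunctiva to 54.7 to 118 in AL and 0.95 to 29.9 in CR, again without overlap, with 4 of them at 0 and 1 tested. All 7 tested fat cell markers of 8 were higher in CR conjunctiva with 0 past the thresholds (median 1.56), and their sums overlapped, at 310 to 1715 and 638 to 1929. No fibroblast or macrophage marker was at 0 in all libraries of a tissue. All 7 conjunctival epithelium markers had a positive log2 change under CR in the cornea, with 0 past the thresholds (median 0.31). Their cornea sums overlapped, at 39899 to 57535 in AL and 45378 to 83407 in CR. The part of these shifts in the values above, the rise of Cyp2a5 included, was not tested.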

How the data were processed

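Gene-level values of 19 libraries were used. The authors trimmed single reads with cutadapt, aligned them to mm10 with STAR, counted them with HTSeq and scaled them with DESeq2 size factors on a commercial platform. The submitters' processing notes also name DESeq2 and GRCm39. The deposited values are log2 of the scaled count plus 1, with each tissue in its own table. Tool versions and the treatment of reads that fit several genes are not given in the sources used here. Of 24557 features per table, 5 with a repeated symbol were dropped and 483 lacked a gene identifier. Groups and library numbers came from the labels. Normalized counts and whole reads were recovered from the deposited values (100% within a small tolerance of a whole number).

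CR was compared with AL in each tissue by limma 3.58.1 (statmod 1.5.0, R 4.3.3) on log2(normalized count + 1), which understates changes of low genes, with an intensity trend and robust moderation. Genes needed a mean of 10 or more. Tests were adjusted over all genes. For the comparison of tissues, one log2 change was subtracted from the other and divided by the combined standard error. Counts of 0 can hide up to 3 reads. The members named were those called, those with an unadjusted p under 0.05 (up to 10 per tissue), the 12 most abundant per tissue, and Cyp2a4. The plan set the closest relative of Cyp2a5 by protein identity. Shared 75-base transcript stretches (GENCODE M21) were used instead, because no protein table was at hand. The other genes named came from the lists, by being called or named in the rule. Cyp1b1, Cyp2j12, Gsta1, Gstp1, Gstk1, Gstt1 and the members at 0 were added after their values were seen. The members and lists were chosen with earlier results of these data known. Gene positions and promoter windows are from RefSeq on GRCm38.p6, with 107 of 108 members placed, 106 given an exon length and 87 matched to a window. The tests were tried on simulated data. No 2 libraries of the same tissue and diet were duplicates, and other pairs were not compared. Figures were drawn with matplotlib.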

Additional observations from a re-analysis of the deposited data

Results flagged for a closer look

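In 88 groups of 4 or 5 libraries, 1 for each tested member named by the rule, tissue and diet, the highest or lowest library stood apart from the others by Dixon's test in 6, and chance gives about 5% of groups. In CR cornea these were Gsta2 in CR 1 (424.9 normalized counts, the next lowest at 747), Gsta3 in CR 7 (2315, next highest 1824) and Gstt3 in CR 7 (655.7, next lowest 991). In CR conjunctiva they were Cyp4a12a in CR 2 (897.6, next highest 274) and Cyp4f39 in CR 5 (497.6, next highest 37.9). In AL conjunctiva it was Gstm2 in AL 1 (1119.9, next highest 847). CR 7 in the cornea also had the lowest Cyp2b19 (111) and Cyp4a12a (196) of its tissue and the highest Cyp2f2 (2995), Gsto1 (307035) and sum of conjunctival epithelium markers (83407).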

How the results depend on the processing

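Cyp2a5 remained called in the cornea under every alternative run. In the conjunctiva it remained called under all but the replicate block, where its log2 change was 0.98 with an adjusted p of 0.0929. The number of members called was 3 in the cornea with array weights (Cyp2a5, Cyp2b19 and Gstz1), 2 with an adjusted p under 0.10 and 1 to 2 when 1 library was left out. In the conjunctiva it was 1 to 2 when 1 library was left out. With the library number as a replicate block, in which animals of the 2 diets share only a number, 2 members were called in the cornea (with Cyp2b19 at 1.33) and 0 in the conjunctiva. Same-numbered AL and CR libraries did not deviate together, with correlations from -0.30 to 0.29 (cornea) and from -0.062 to 0.053 (conjunctiva). No alternative gave a member whose change differed between tissues at an adjusted p under 0.05, the block by shared title included (0). Over all genes, 150 were called in the cornea, 705 with array weights, 46 with the block, 62 with the share of genes without a read as a covariate, 99 with voom on the recovered reads and 53 to 536 leaving out 1 library (536 without AL 4, 53 without AL 5). In the conjunctiva 50 were called, 149 with array weights, 10 with the block, 48 with voom and 26 to 127 leaving out 1 library (127 without CR 3, 26 without CR 2). The median log2 change of members in the cornea was -0.21 without a filter and 0.099 at a mean of 50. Signs turned for members with changes near 0. These were Cyp4a12b in the cornea (0.081 with array weights, -0.26 to 0.038 leaving out 1 library) and in the conjunctiva (-0.11 with quantile normalization, -0.019 with the block, -0.14 with the share of genes without a read as a covariate, -0.044 to 0.17 leaving out 1 library). With that covariate they were also Gsta4 (0.022) and Gstm1 (-0.13) in the cornea and Gsta2 (0.019) in the conjunctiva. In the conjunctiva Cyp2j9 was at -0.049 with array weights and -0.15 to 0.32 leaving out 1 library, and Gstz1 at 0.071 with the block and -0.27 to 0.071. In the cornea leaving out 1 library gave Gstt3 -0.028 to 0.15, Gsta2 -0.22 to 0.021 and Gstm2 -0.19 to 0.020. The cause of these shifts was not tested. Members with a mean under 10 normalized counts were not tested, although single libraries reached up to 38.8 (Cyp3a57 in CR 5 of the conjunctiva).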
